A study of Mus musculus with 4 samples.

Results

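The serpins, the serine protease inhibitor family, were followed in mouse liver on 4 arrays. A gene was included if its annotated symbol starts with Serpin, which held for 30 of 12393 named genes, and where several probe sets carry the same gene symbol the one with the highest mean intensity over the 4 arrays stands for the gene. A further 3 probe sets are annotated to several serpin genes at once. They are left out of all gene counts: 2 read antitrypsin genes and are described with them, and 1, for Serpinb9e, Serpinb9f, Serpinb9g and Serpinb9h, was below background on all arrays. The arrays are Affymetrix MOE430A GeneChips, and the values are intensities that the authors computed with GCRMA.

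Livers came from PPARα-null mice given Wy14643, PPARα-null mice given the control diet, wild-type mice given Wy14643 and wild-type mice given the control diet, all male and aged 12-20 weeks. Wy14643, a synthetic agonist of the nuclear receptor PPARα, was mixed into the chow at 0.1% (w/w) for 5 days, and control mice ate the chow without it. The labels give PPARα-null mice as 129S4/SvJae and wild-type mice as 129S1/SvImJ, so the lack of PPARα and the difference in substrain cannot be told apart. Each group is 1 array of RNA pooled within the group. The design summary gives 5 mice per group, whereas the study's own text allows for fewer in a pool. With 1 array per group, no value has a replicate error and no test over mice is possible. The precision of every ratio is limited by how few arrays there are. One label field of the wild-type Wy14643 array repeats the text of its control. Its title was followed, and 11 of 12 known target genes of PPARα were at least 1.5-fold higher on it than on the wild-type control array. Of 7235 named genes counted, 15.6% were. A gene counts as called where its 2 intensities differ 1.5-fold or more, which is also the study's threshold.

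Ppara, the disrupted gene, had an intensity of 428 in PPARα-null livers on Wy14643 and 326 in PPARα-null livers on the control diet, against 1250.1 and 847 in wild-type livers on the same diets. Signal was left in both PPARα-null pools, and the sources used here do not say if this probe set reads the deleted stretch of the gene. The background was set at 14.2, the 90th percentile of 65 probe sets for 47 genes of other tissues (eye, brain, testis and the like), and 50.0% to 50.8% of the probe sets of an array exceeded it. Of 9 hepatocyte markers, all were above background on all 4 arrays, and Alb, Ttr and Apoa1 had intensities from 13675 to 21820.1 on them. In liver tissue, fewer cells of a type and less RNA per cell cannot be told apart.

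Serpins carry an exposed loop that a target protease takes for a substrate. On cleavage the loop folds into the body of the serpin, and the protease is trapped in a covalent complex. Hepatocytes secrete most serpins of blood plasma, which restrain neutrophil elastase, the clotting proteases, plasmin and the proteases of complement. Some members have lost inhibition and carry hormones or assist protein folding instead, and the members of clade B mostly stay inside cells.

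Of the 30 serpins, 15 were above background on all 4 arrays, 4 on 1 to 3 arrays and 11 on none, where intensities lay between 4.30 and 11.2. No fold is given for those 11, which are Serpina3a, Serpini2 and the 9 clade B genes Serpinb1b, Serpinb2, Serpinb5, Serpinb6b, Serpinb6c, Serpinb7, Serpinb9b, Serpinb9g and Serpinb11. The secreted serpins of hepatocytes made up the other end, with 10 genes averaging above 1000.

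**Figure D1:**
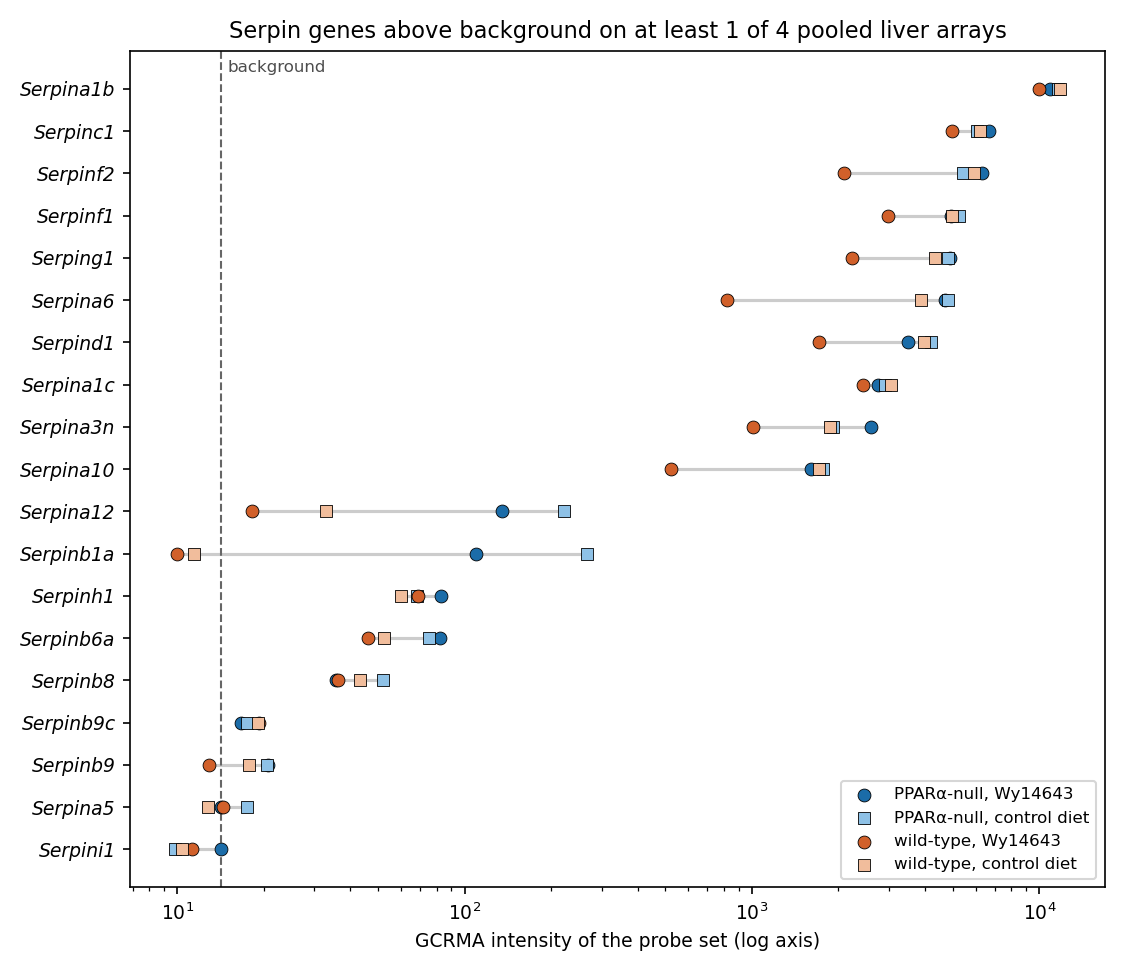
GCRMA intensity (horizontal, log axis) of the 19 serpin genes that exceed background on any array, 1 point per array of pooled liver RNA; the dashed line is the background of 14.2 and grey lines join a gene's lowest and highest array. For Serpina6, Serpina10 and Serpinf2 the wild-type Wy14643 array stands at 818, 524 and 2087, below the other 3 arrays, whereas for Serpina12 and Serpinb1a both wild-type arrays lie below both PPARα-null arrays.

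The antitrypsin genes encode the main inhibitor of neutrophil elastase in plasma, and mice carry several near-identical copies. Serpina1b had intensities of 10864 in PPARα-null livers on Wy14643 and 11596.5 with the control diet, and 9977 in wild-type livers on Wy14643 and 11843 on the control diet. Its second probe set gave 11322 and 10536 in PPARα-null livers and 8998 and 10018 in wild-type livers on Wy14643 and on the control diet. Serpina1c had intensities of 2752 and 2912 in PPARα-null livers and 2432 and 3048 in wild-type livers on Wy14643 and on the control diet. All 3 probe sets were lowest on the wild-type Wy14643 array, yet none passed 1.5-fold in any comparison, and the log2 ratio of Wy14643 to the control diet in wild-type livers was -0.25 and -0.15 for the pair of Serpina1b probe sets and -0.33 for Serpina1c.

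The probe sets annotated to several copies moved further. Probe set 1420553_x_at, annotated to Serpina1d and Serpina1a and designed on a transcript of Serpina1a, had intensities of 16352.5 and 16632.5 in PPARα-null livers on Wy14643 and on the control diet, against 7076 and 15691.5 in wild-type livers. Its log2 ratio of Wy14643 to the control diet was -0.02 in PPARα-null livers, while it was 2.22-fold lower on Wy14643 in wild-type livers. Probe set 1449321_x_at had intensities of 974 and 1154 in PPARα-null livers, against 65.4 and 1029.75 in wild-type livers on the same diets. The log2 ratio of Wy14643 to the control diet was -0.24 in PPARα-null livers. In wild-type livers this probe set was 15.7-fold lower on Wy14643, the largest ratio of a serpin probe set in that comparison. It was 14.9-fold higher in PPARα-null than wild-type livers on Wy14643. The annotation assigns it to Serpina1e, Serpina1c and Serpina1b, whereas the gene table of assembly GRCm38.p6 assigns the transcript it was designed on to Serpina1d. The copy or copies behind this signal therefore remain unnamed. All but 1 of the 5 antitrypsin probe sets end in _x_at, the suffix of probe sets whose probes may bind several transcripts, so the 5 readings are not independent measurements of 5 genes. A difference in probe sequence between the substrains was not tested.

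**Figure D2:**
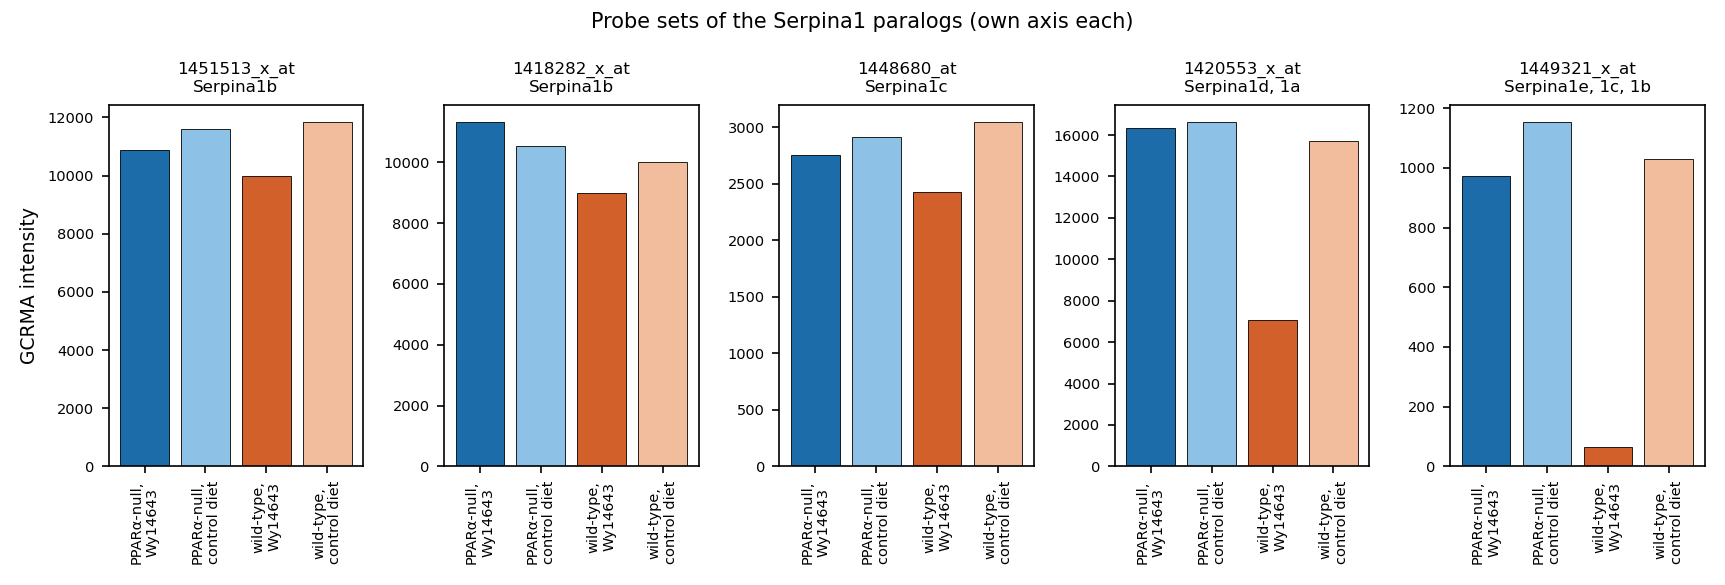
GCRMA intensity (vertical, linear from 0, own scale in each panel) of the 5 probe sets annotated to Serpina1a to Serpina1e, 1 bar per array of pooled liver RNA. The wild-type Wy14643 bar stands at 65.4 for 1449321_x_at and at 7076 for 1420553_x_at, while it stands at 9977 and 8998 for the Serpina1b probe sets and at 2432 for Serpina1c.

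The DNA just upstream of these genes is shown because the probe sets of the copies gave unequal ratios. The stretches are RefSeq sequence of assembly GRCm38.p6, all on the minus strand of chromosome 12, at chr12:103863625-103863739 (Serpina1a), chr12:103738200-103738314 (Serpina1b), chr12:103904962-103905076 (Serpina1c), chr12:103773634-103773748 (Serpina1d) and chr12:103956960-103957074 (Serpina1e). Each has 115 bases and ends 0 to 62 bases before the annotated start of its gene. Capitals mark a base that only this copy of the 5 carries at that position. These stretches were chosen after the values had been seen, and they come from the C57BL/6J reference genome and not from the mice of the study.
Serpina1a: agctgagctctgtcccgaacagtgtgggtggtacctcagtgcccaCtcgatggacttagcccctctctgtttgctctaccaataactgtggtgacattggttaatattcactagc
Serpina1b: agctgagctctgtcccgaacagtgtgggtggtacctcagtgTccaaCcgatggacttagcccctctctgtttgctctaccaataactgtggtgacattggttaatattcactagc
Serpina1c: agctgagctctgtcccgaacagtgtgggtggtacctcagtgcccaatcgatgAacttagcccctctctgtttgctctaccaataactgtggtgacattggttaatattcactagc
Serpina1d: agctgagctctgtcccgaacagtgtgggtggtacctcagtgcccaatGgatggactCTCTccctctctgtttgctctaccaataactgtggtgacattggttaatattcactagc
Serpina1e: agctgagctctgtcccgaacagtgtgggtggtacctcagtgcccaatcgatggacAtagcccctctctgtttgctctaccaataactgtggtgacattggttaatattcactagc

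The 5 stretches were alike at 105 of 115 positions, and any pair shared between 108 and 113 bases. Serpina1d differed most, with 5 bases of its own. The last 55 bases were identical in all 5 genes and were found in no other promoter of the table. This shared run, with the letters GTTAAT in capitals, which form the core of sites known to bind the liver transcription factor HNF1, reads as follows.
Serpina1a to Serpina1e: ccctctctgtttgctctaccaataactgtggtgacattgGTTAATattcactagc

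GTTAAT, searched on both strands of the 300 bases around a start, occurred in 7 of 32 promoter entries of 29 serpin genes and in 7.1% of all 32851 promoter entries. The 5 antitrypsin genes hold it within the run already shown to be identical among them, so their entries are not separate finds. The other entries were those of Serpinb8 and Serpini2. The count is therefore not read as a trait of the family. A PPARα response element is typically a pair of AGGTCA letters with 1 base between them (AGGTCANAGGTCA). No serpin entry held it on either strand without mismatch, and 0.0396% of all entries did. With at most 2 mismatches 3 serpin entries held it (9.38%, against 3.86% of all entries), those of Serpina12, Serpinb5 and Serpinb9g, of which Serpina12 alone was above background. A match is a description of letters and not of binding. The promoter set searched here held no entry for Serpina6, Serpina10, Serping1 and Serpinb1a, so these counts do not cover them.

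Serpina3n, an antichymotrypsin gene known as an acute phase gene in mice, was the antichymotrypsin gene above background. Its intensities were 2588 in PPARα-null livers on Wy14643 and 1908 with the control diet, and 1009.6 in wild-type livers on Wy14643 and 1868 on the control diet. PPARα-null over wild-type had a log2 ratio of 1.36 on Wy14643 and 0.03 on the control diet. For Wy14643 over the control diet, the log2 ratio was 0.44 in PPARα-null livers, which is under the threshold, and -0.89 in wild-type livers, where Serpina3n was 1.85-fold lower. The array gives Serpina3n and Serpina3a out of a large cluster of Serpina3 copies in the mouse genome, and the probe set 1419100_at may read other copies, which was not tested.

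Serpina6, a hormone carrier, encodes the corticosteroid-binding globulin of plasma. With the shared antitrypsin probe sets left out, it showed the largest ratio of Wy14643 to the control diet of any serpin in wild-type livers. Its intensities were 4691 and 4818 in PPARα-null livers on Wy14643 and on the control diet, against 818 and 3879.6 in wild-type livers. The wild-type Wy14643 array thus stood apart from the other 3. Its log2 ratio of Wy14643 to the control diet was -0.04 in PPARα-null livers, and it was 4.74-fold lower on Wy14643 in wild-type livers. It was 5.74-fold higher in PPARα-null than wild-type livers on Wy14643 and had a log2 ratio of 0.31 on the control diet.

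The serpins of clotting divided. Serpina10, the inhibitor of clotting factor Xa that acts with protein Z, had intensities of 1611 and 1772 in PPARα-null livers on Wy14643 and on the control diet, against 524 and 1714 in wild-type livers. Serpind1, or heparin cofactor II, an inhibitor of thrombin, had 3497 and 4188 in PPARα-null livers, against 1706 and 3958 in wild-type livers on the same diets. In PPARα-null livers their log2 ratios were -0.14 and -0.26, and in wild-type livers both were lower on Wy14643, Serpina10 by 3.27-fold and Serpind1 by 2.32-fold. The probe set of Serpina10 may read several transcripts by its suffix, _s_at, and no other stands for this gene. Serpinc1, or antithrombin, the main inhibitor of thrombin and factor Xa, had 6704 and 6055 in PPARα-null livers and 4949.5 and 6199 in wild-type livers on Wy14643 and on the control diet. Its log2 ratio was 0.15 in PPARα-null livers and -0.32 in wild-type livers, so it passed the threshold in neither. Serpina5, the protein C inhibitor, lay at background, with 14.2 and 17.4 in PPARα-null livers and 14.4 and 12.8 in wild-type livers.

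Serpinf2 and Serping1 act on fibrinolysis and on complement. Serpinf2, or α2-antiplasmin, the main plasmin inhibitor, had intensities of 6323 and 5422 in PPARα-null livers on Wy14643 and on the control diet, against 2087 and 5916 in wild-type livers. Serping1, the C1 inhibitor, which blocks the complement proteases C1r and C1s as well as plasma kallikrein, had 4881 and 4802 in PPARα-null livers, against 2221 and 4319 in wild-type livers. The wild-type Wy14643 array was again the low one of the 4 in each. In PPARα-null livers the log2 ratios of Wy14643 to the control diet were 0.22 for Serpinf2 and 0.023 for Serping1. In wild-type livers Serpinf2 was 2.83-fold and Serping1 1.94-fold lower on Wy14643.

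Of the secreted serpins without a known protease target in clotting or complement, Serpinf1, which encodes pigment epithelium-derived factor, had intensities of 4926 and 5247 in PPARα-null livers on Wy14643 and on the control diet, against 2984 and 4978 in wild-type livers. Its dimmer probe set gave 3116 and 3036 in PPARα-null livers, against 2245 and 3254 in wild-type livers. The brighter one was 1.67-fold lower on Wy14643 in wild-type livers, and the dimmer one, with a log2 ratio of -0.54, stayed under the threshold. Serpinh1, the collagen chaperone Hsp47 of the endoplasmic reticulum, had 82.9 and 68.1 in PPARα-null livers and 69.1 and 60.1 in wild-type livers and passed 1.5-fold in no comparison. Its dimmer probe set gave 40.3 and 30.4 in PPARα-null livers and 51.0 and 33.3 in wild-type livers, where it was 1.53-fold higher on Wy14643. Serpini1, or neuroserpin, known from neurons, was at 14.2 in PPARα-null livers on Wy14643, just above background, and between 9.79 and 11.2 on the other arrays.

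Serpina12 and Serpinb1a differed between the genotypes on either diet. Serpina12 encodes vaspin, a serpin described in adipose tissue, and had intensities of 135 and 221 in PPARα-null livers on Wy14643 and on the control diet, against 18.1 and 33.0 in wild-type livers. It was 7.45-fold higher in PPARα-null than wild-type livers on Wy14643 and 6.69-fold higher on the control diet (log2 ratios 2.90 and 2.74). These log2 ratios were 1.74 and 1.96 with 32 added to every intensity and 1.44 and 1.37 with the median over the gene's probe sets, all past the threshold. Wy14643 went with lower values in both genotypes, by 1.64-fold in PPARα-null livers and by 1.82-fold in wild-type livers. The other Serpina12 probe set was below background on all arrays, and with the median over both, the log2 ratio of Wy14643 to the control diet came to -0.34 in PPARα-null livers and to -0.42 in wild-type livers, under the threshold. With 32 added to every intensity it was -0.38 in wild-type livers. The stretch of its promoter (RefSeq, GRCm38.p6, chr12:104044610-104044682, minus strand) that matches AGGTCANAGGTCA with 2 mismatches is shown with the match in capitals, since Serpina12 is the only serpin above background with such a match among the promoters searched.
Serpina12: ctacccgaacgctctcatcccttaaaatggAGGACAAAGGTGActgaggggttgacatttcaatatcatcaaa

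Serpinb1a, an inhibitor of neutrophil elastase and cathepsin G that stays inside cells, had intensities of 110.0 and 267 in PPARα-null livers on Wy14643 and on the control diet, against 10.01 and 11.4, both below background, in wild-type livers. It was higher in PPARα-null livers by at least 7.74-fold on Wy14643 and by at least 18.8-fold on the control diet. Its other probe set, 1448301_s_at, was above background throughout, with 70.2 and 104 in PPARα-null livers against 23.6 and 28.2 in wild-type livers, or 2.97-fold higher on Wy14643 and 3.68-fold on the control diet. The probe sets thus gave the same direction and different sizes. In PPARα-null livers Serpinb1a was 2.43-fold lower on Wy14643 than control diet by the first probe set and 1.48-fold lower by the second. Whether the probes match the 129S1/SvImJ sequence was not tested. Of 4 measured markers of neutrophils, which also hold Serpinb1a, 3 were higher on Wy14643 in PPARα-null livers, where 2.36% of 7122 named genes were higher. The summed intensity over 8 markers was 292 in PPARα-null livers on Wy14643 against 91.5 with the control diet, and 83.7 against 84.0 in wild-type livers, with Ltf, Camp, Mpo and Csf3r below background on all arrays and S100a8 at 106 against 15.7 in PPARα-null livers. Their part in the Serpinb1a values was not tested.

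The other clade B genes above background were dim. Serpinb6a had intensities of 82.0 and 75.3 in PPARα-null livers on Wy14643 and on the control diet, against 46.3 and 52.2 in wild-type livers, and was 1.77-fold higher in PPARα-null than wild-type livers on Wy14643 (log2 ratio 0.53 on the control diet). Its only probe set may read several transcripts by its suffix, _a_at, and with 32 added to every intensity the log2 ratio on Wy14643 was 0.54, under the threshold. Serpinb9, an inhibitor of granzyme B, had 20.7 and 20.5 in PPARα-null livers, against 12.9, below background, and 17.8 in wild-type livers, which allows a fold of at least 1.45 on Wy14643. Serpinb8 had 35.7 and 52.1 in PPARα-null livers and 36.2 and 43.3 in wild-type livers. Serpinb9c lay between 16.7 and 19.3 on all arrays, and neither it nor Serpinb8 passed 1.5-fold in any comparison.

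**Figure D3:**
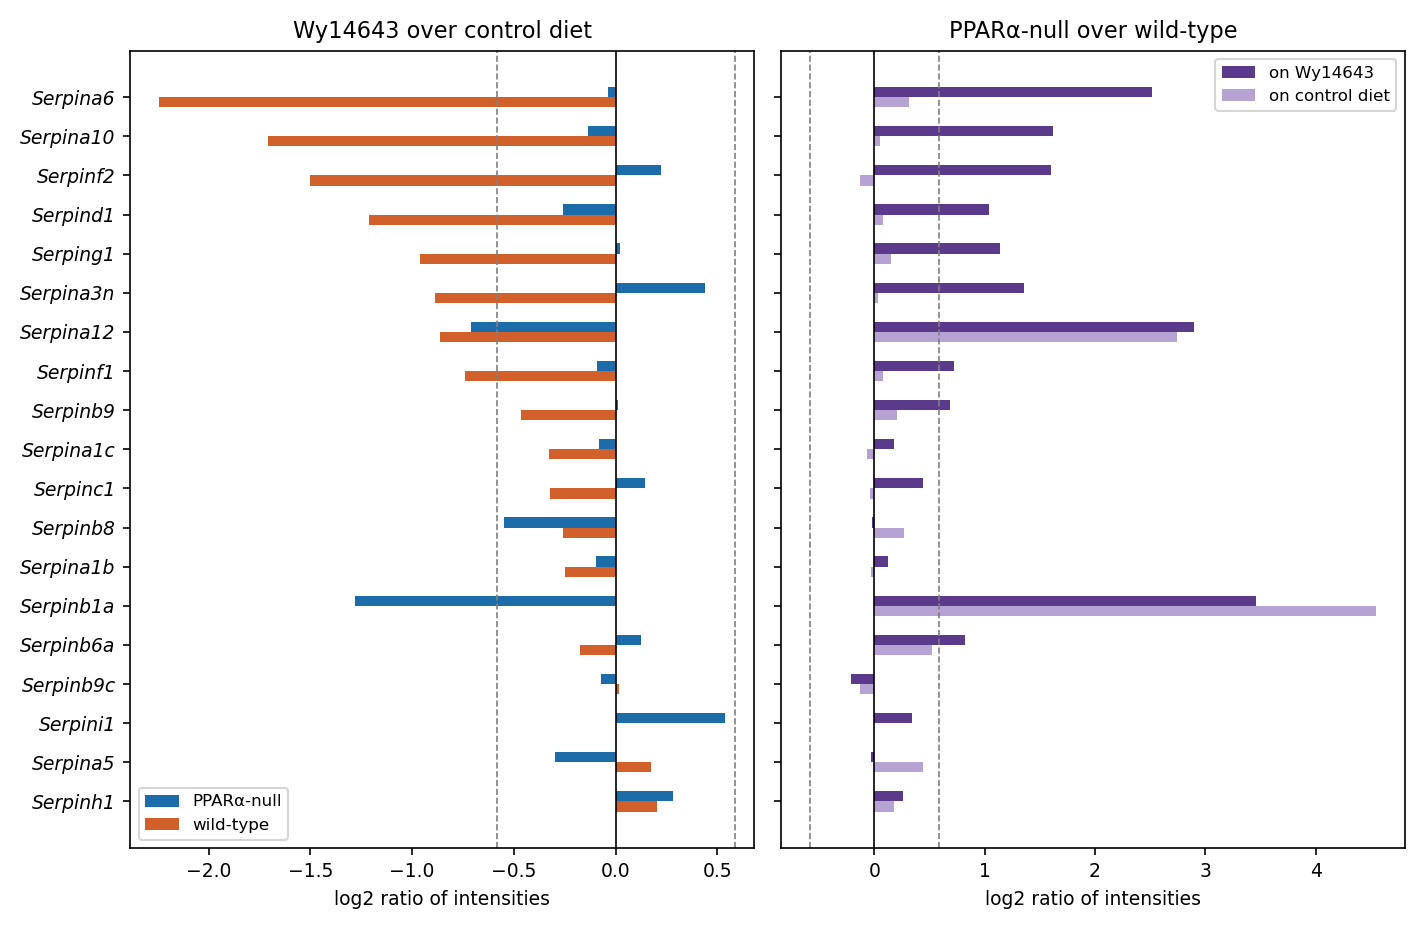
Log2 ratio of intensities (horizontal) for the 19 serpin genes that exceed background on any array: Wy14643 over the control diet in each genotype (left) and PPARα-null over wild-type on each diet (right); a missing bar means that both arrays compared were below background, and dashed lines mark 1.5-fold. Serpina6 is at -0.04 in PPARα-null and -2.25 in wild-type livers, and the bars of Serpina12 and Serpinb1a exceed 2.7 on both diets.

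Counted over the family, 2 of 19 serpins, Serpina12 and Serpinb1a, were lower on Wy14643 in PPARα-null livers and 0 higher, where 4.63% of 7122 named genes were lower and 2.36% higher. The median log2 ratio was -0.07, against -0.00 over all genes. The 10 serpins averaging above 1000 had log2 ratios between -0.26 (Serpind1) and 0.44 (Serpina3n), so 0 of 10 were called, where 2.34% of 1025 named genes that bright were lower and 1.46% higher.

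In wild-type livers, 8 serpins were lower on Wy14643 and none higher. Of 17 genes that exceeded background on either array, 8 were lower (Serpina6, Serpina10, Serpinf2, Serpind1, Serping1, Serpina3n, Serpina12 and Serpinf1) and 0 higher, where 16.7% of 7235 named genes were lower and 15.6% higher. All 8 were above background on both arrays. The median log2 ratio of the 17 was -0.47, against 0.01 over all genes. It was -0.23 without the filter on dim genes, and -0.74 either without probe sets that may read several transcripts or with genes above background on both arrays only. Among the 10 serpins averaging above 1000, 7 were lower, where 25% of 1025 named genes that bright were lower and 17.8% higher. The 3 that were not are Serpina1b, Serpina1c and Serpinc1. The genotypes' responses were not tested against each other, which takes replicates.

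**Figure D4:**
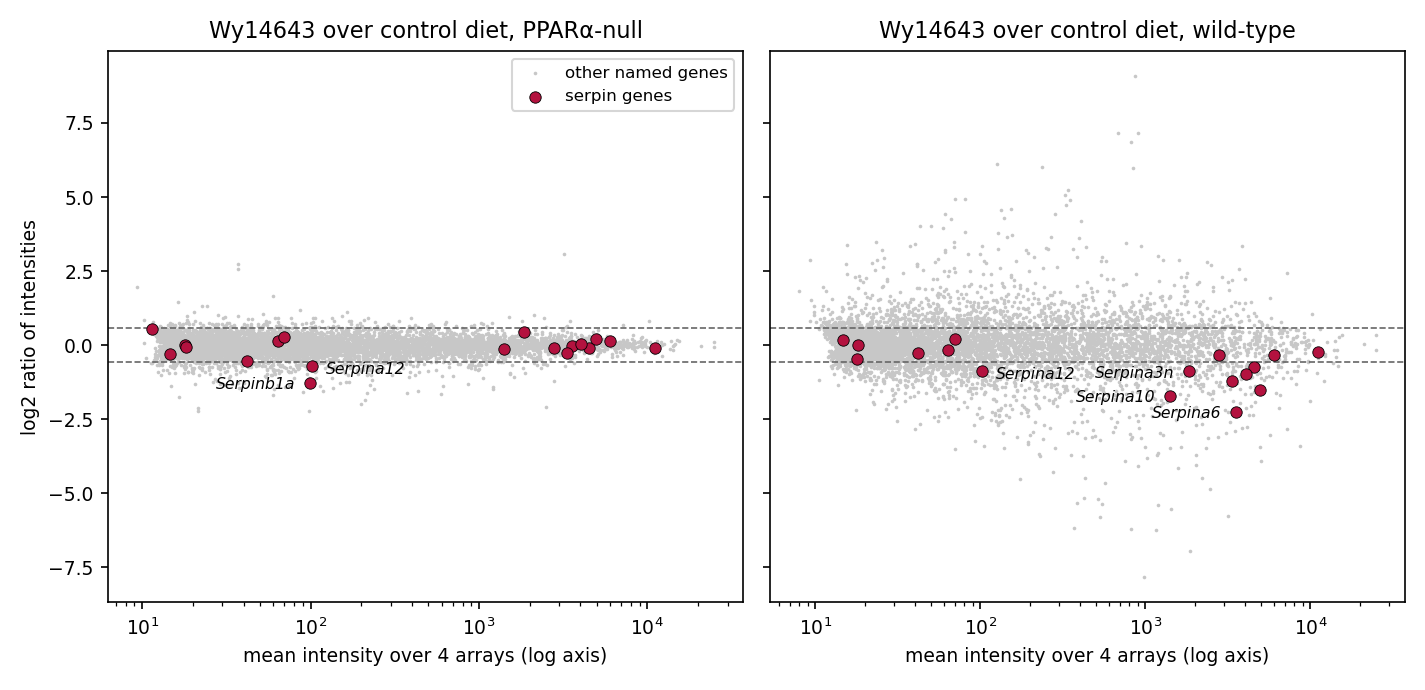
Log2 ratio of Wy14643 to the control diet (vertical) against the mean intensity over the 4 arrays (horizontal, log axis) in PPARα-null (left) and wild-type livers (right), 1 point per named gene that exceeds background on either array, serpins in red; dashed lines mark 1.5-fold. In PPARα-null livers 2 serpins, Serpina12 and Serpinb1a, lie below the lower line, and in wild-type livers 8 do, led by Serpina6 at -2.25.

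Between the genotypes on Wy14643, 11 of 19 serpins were higher in PPARα-null than wild-type livers and 0 lower, where 18.5% of 7309 named genes were higher and 17.3% lower. Besides the 8 genes lower on Wy14643 in wild-type livers, they were Serpinb1a, Serpinb6a and Serpinb9, and the count is 10 with Serpinb9 at its smallest fold. The count is 9 with 32 added to every intensity (Serpinb6a and Serpinb9 drop out), 9 without probe sets that may read several transcripts (Serpina10 and Serpinb6a) and 9 with genes above background on both arrays only (Serpinb1a and Serpinb9). Of the 10 averaging above 1000, 7 were higher, where 28.1% of genes that bright were higher and 19.3% lower. This comparison shares the wild-type Wy14643 array with the one within wild-type livers, so the values are given side by side and are no second observation. Serpina10 was 3.07-fold, Serpinf2 3.03-fold, Serpina3n 2.56-fold, Serping1 2.2-fold, Serpind1 2.05-fold and Serpinf1 1.65-fold higher in PPARα-null livers. On the control diet 2 of 18 serpins, Serpina12 and Serpinb1a, were higher in PPARα-null livers and 0 lower, where 2.59% of 7022 named genes were higher and 2.52% lower. The 10 serpins averaging above 1000 had log2 ratios between -0.13 (Serpinf2) and 0.31 (Serpina6) there, and 0 were called, where 1.37% of genes that bright were higher and 4.29% lower.

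Most clade A serpins lie in 1 cluster on chromosome 12. In the order of the gene table of GRCm38.p6 (used for names and neighbours), those on the array run Serpina10, Serpina6, Serpina1b, Serpina1c, Serpina12, Serpina5, Serpina3a and Serpina3n. Serpina10 and Serpina6 lie next to each other among the serpins at one end, and both were more than 3-fold lower on Wy14643 in wild-type livers. Serpina1b and Serpina1c, which follow, were not called, although the probe sets 1420553_x_at and 1449321_x_at, annotated to antitrypsin copies of the same stretch, were 2.22-fold and 15.7-fold lower. Farther along, Serpina12 and, at the other end, Serpina3n were lower, while Serpina5 lay at background and Serpina3a below it. The genes lower on Wy14643 also included Serpinf1 and Serpinf2, both on chromosome 11, Serpind1 on chromosome 16 and Serping1 on chromosome 2.

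Proteases of the kinds that serpins restrain were counted beside them. Of the protease genes of clotting, fibrinolysis, complement and neutrophil granules, 0 of 17 measured were called in PPARα-null livers (median log2 ratio 0.03). There 4.63% of all named genes were lower on Wy14643 and 2.36% higher. In wild-type livers 10 of 16 were lower on Wy14643 and 0 higher (median -0.83). This stands beside 16.7% lower and 15.6% higher of all named genes, and 25% lower of those averaging above 1000. In PPARα-null livers the log2 ratios were 0.03 for C1s1, -0.12 for C1ra and -0.13 for F11. C1s1 and C1ra, the complement proteases blocked by C1 inhibitor, had log2 ratios of -4.04 and -3.17 on Wy14643 in wild-type livers, where Serping1 itself had -0.96. F11, a clotting factor, was 10.9-fold lower.

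Of 17 measured secreted protease inhibitors outside the family, 0 were called in PPARα-null livers (median log2 ratio -0.01), and 9 were lower and 2 higher on Wy14643 in wild-type livers (median -0.59). Itih4 was 4.39-fold, Itih1 2.59-fold and Kng1, the kininogen gene, 2.15-fold lower in wild-type livers. Acute phase proteins other than serpins counted 0 called of 17 in PPARα-null livers, and 11 lower and 1 higher of 18 in wild-type livers (median -0.81). Both wild-type counts stand beside the same 16.7% lower and 15.6% higher of all named genes, and 25% lower of those averaging above 1000. Both PPARα-null counts stand beside 4.63% lower and 2.36% higher of all named genes. The serum amyloid gene Saa2 was 41.1-fold, Orm2 9.71-fold and Lcn2 9.23-fold lower in wild-type livers.

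Markers of liver cell types were counted as well. Over all named genes, 4.63% were lower and 2.36% higher on Wy14643 in PPARα-null livers. In wild-type livers 16.7% were lower and 15.6% higher. Among named genes averaging above 1000, as the hepatocyte markers do, 25% were lower and 17.8% higher in wild-type livers. Of 9 hepatocyte markers, 0 were called in PPARα-null livers, with a summed intensity of 70476 on Wy14643 against 69893 with the control diet, and 3 were lower and 0 higher in wild-type livers (median log2 ratio -0.54), with sums of 63557 and 68618. Of 8 measured stellate cell markers 3 were higher on Wy14643 in PPARα-null livers, with a sum over 11 markers of 2306 against 1763, and 4 of 7 were lower in wild-type livers, with 873 against 1607. Col1a1, Des and Lrat were below background on all arrays. Kupffer cell markers were lower in both genotypes, 9 of 9 in PPARα-null livers (sum over 11 markers 693 against 1349) and 8 of 9 in wild-type livers (446 against 1132), and Marco and Cd68 were below background on all arrays. Of 9 measured sinusoidal endothelial markers, 6 were lower in PPARα-null livers and 2 in wild-type livers. Bile duct markers other than Sox9 were below background on all arrays, as were 7 of 9 lymphocyte markers. In wild-type livers Tat was 2.93-fold, Asgr2 2.24-fold and Cps1 2.12-fold lower on Wy14643, the largest ratios of the hepatocyte markers. Vsig4 was 4.39-fold, Cd5l 3.96-fold and Csf1r 3.45-fold lower (Kupffer cells). Pdgfrb was 2.23-fold, Dcn 2.02-fold and Reln 1.62-fold lower (stellate cells). Fcgr2b was 2.27-fold and Clec4g 2.07-fold lower, and Stab1 had a log2 ratio of -0.35 (endothelial cells). Sox9 was 1.62-fold higher, and Cd4, of lymphocytes, had a log2 ratio of 0.09. The part of cell composition in the serpin values was not tested.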

How the data were processed

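Liver RNA of 4 groups of mice was measured, with 1 array of pooled RNA per group. Per the labels and the methods of the study, the authors computed the deposited intensity values from scans of MOE430A arrays with GCRMA (version 2.20 in the submitters' processing notes). GCRMA subtracts background by probe sequence, brings arrays to a common distribution and gives 1 value per probe set. The sources used here do not say which arrays were normalized together. The values run from 1.55 to 31270.2 and are on the linear scale.

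After removal of 64 control probe sets from 22690, 22626 were used, of which 20380 carry 1 gene symbol in the platform annotation, 691 several and 1555 none, and the symbols of all 30 serpin genes are unchanged in the RefSeq gene table of GRCm38.p6. Log2 ratios of intensities were taken for 4 comparisons, and a ratio of at least 1.5 was called, as in the study. A gene below background on both arrays of a comparison was left out of it, and for a gene below background on 1 of them the smallest fold that background allows is printed. Counts and medians use the ratio of the values themselves. With 1 array per group there was no test. The calculation was tested on simulated data.

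Every serpin was reported by rule. From each other list up to 3 genes were named, those with the largest response to Wy14643 in wild-type livers among genes above background on both arrays. The members, lists, rules and alternatives were chosen with earlier results of these data known. Further marker genes, the antitrypsin promoters and the share of calls among genes averaging above 1000 were chosen after their values had been seen. Protein stretches that had been planned are not shown. Promoters are RefSeq sequence from 250 bases before to 50 bases after a start. The alternatives were a floor at background, 32 added to every intensity, centring each array on its median, cyclic loess between arrays (limma 3.58.1 in R 4.3.3), leaving out probe sets that may read several transcripts, the median over the probe sets of a gene, and a stricter or no filter on dim genes. Python 3.11.15 with numpy, pandas and matplotlib was used.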

Additional observations from a re-analysis of the deposited data

Results flagged for a closer look

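Serpins that were called in 1 genotype or on 1 diet and had the opposite sign in the other stood out for a closer look. Their difference was not tested, since each group has 1 array. Serpina3n had a log2 ratio of Wy14643 to the control diet of 0.44 in PPARα-null livers and -0.89 in wild-type livers. Serpinf2 had 0.22 in PPARα-null livers and -1.50 in wild-type livers, and for PPARα-null over wild-type it had 1.599 on Wy14643 and -0.13 on the control diet. Serping1 had 0.023 in PPARα-null livers and -0.96 in wild-type livers. For Serpinf2 and Serping1 the side opposite to the call lay under 1.2-fold, and over all named genes the log2 ratios of the PPARα-null pair had a standard deviation of 0.33.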

How the results depend on the processing

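Counts of called serpins and their medians were recomputed under 8 alternatives for 4 comparisons. Of 96 such values 92 stayed within 1.5 times the count or within 0.33 of the median. The exceptions were a median of 0.31 for PPARα-null over wild-type on Wy14643 without a filter on dim genes (0.72 with it), 1 gene higher in PPARα-null livers on the control diet with genes above background on both arrays only (2 otherwise, Serpinb1a is lost), 1 gene higher on Wy14643 in PPARα-null livers with arrays centred on their median (0 otherwise, Serpini1 is gained), and 1 gene lower on Wy14643 in PPARα-null livers with the median over probe sets (2 otherwise, Serpina12 is lost). Within those bounds, the median for Wy14643 over the control diet was 0.09 in PPARα-null livers without the filter on dim genes (-0.07 with it), and in wild-type livers it ranged between -0.74 and -0.23 (-0.47 as reported). Of 590 ratios of single serpins or shared probe sets, 571 moved by less than 0.33, 19 moved further and 0 called ones changed sign. Many of the 590 could not move. The stricter filter and no filter (63 and 73 ratios) reuse the reported values. The same holds for the 57 ratios without probe sets that may read several transcripts. A floor leaves genes above background on both arrays as they are, and the median changes nothing for genes with 1 probe set. The 571 are therefore no measure of stability. Of the 8 genes lower on Wy14643 in wild-type livers, all 8 were called under centring and cyclic loess. A floor could not change these 8, which were above background on both arrays. With 32 added or with the median over probe sets 7 were called (without Serpina12). Leaving out probe sets that may read several transcripts also gave 7, since it leaves Serpina10 with none and the other ratios as they were. The scalings shifted the median log2 ratio of all genes by between -0.054 and 0.050. Of the 11 genes higher in PPARα-null livers on Wy14643, between 9 and 11 were called under each alternative. No paired analysis was possible because each group has 1 array, and the signal of dim genes such as Serpinb9, Serpina5 and Serpini1 limits what can be said of them.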

Other observations

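Transcription factors and receptors known to act on serpin genes of liver were measured beside them. Of 13 genes, 0 were called on Wy14643 in PPARα-null livers (median log2 ratio -0.05), where 4.63% of 7122 named genes were lower and 2.36% higher. Of 12 genes 5 were lower and 1 higher in wild-type livers (median -0.56), where 16.7% of 7235 named genes were lower and 15.6% higher. Stat3, which carries the interleukin-6 signal to acute phase genes, had an intensity of 578 in PPARα-null livers on Wy14643 and 490.2 on the control diet, against 182 and 509 in wild-type livers. Cebpa, a hepatocyte transcription factor gene, had 2282 and 1842 in PPARα-null livers, against 714 and 1867 in wild-type livers, and Foxa2 had 70.9 and 81.0 in PPARα-null livers, against 38.8 and 88.9 in wild-type livers on the same diets. All 3 were lowest on the wild-type Wy14643 array, by 2.81-fold, 2.62-fold and 2.29-fold relative to the wild-type control diet.

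Genes known as targets of PPARα were counted in the same way. On Wy14643, 3 of 12 were higher in PPARα-null livers (median log2 ratio 0.15) and 11 of 12 in wild-type livers (median 1.86), with 0 lower in either. Over all named genes, 2.36% were higher in PPARα-null livers and 15.6% in wild-type livers. Pdk4, a kinase that restrains glucose oxidation, had an intensity of 31.0 in PPARα-null livers on Wy14643 and 44.3 on the control diet, against 3152 and 27.4 in wild-type livers. Acot1 had an intensity of 1158 in PPARα-null livers on Wy14643 and 954 on the control diet, against 11997 and 1181 in wild-type livers, and Pex11a had 358 and 322 in PPARα-null livers, against 5014 and 679 in wild-type livers. No serpin above background by the probe set that stands for it was at least 1.5-fold higher on Wy14643 in either genotype.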
